A study of Mus musculus with 6 samples.

Results

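The genes described here govern the entry of glucose into liver cells and its release from them. They are Gckr, G6pc, G6pc3, Fbp1, Pck1, Pklr, Hk3, Slc2a2 and Slc37a4, chosen by name, and every probe set annotated to exactly 1 of these symbols was taken. This gave 14 probe sets of 9 genes, out of 45037 probe sets and 18193 genes on the array. Liver RNA came from 3 mutants of the genotype B6.Alb/cre,Pdss2loxP/loxP and 3 controls of the genotype B6.Pdss2loxP/loxP, with 1 Affymetrix mouse array per animal. Both groups carry the loxP-flanked Pdss2 allele on the B6 background, and only the mutants carry cre recombinase, driven by the albumin promoter, which is active in hepatocytes, so that Pdss2 is left intact in the other cells of the liver. Pdss2 encodes a subunit of the enzyme that makes the isoprenoid side chain of coenzyme Q (CoQ), the electron carrier of the mitochondrial respiratory chain. The labels describe all 6 mice as male, untreated and killed 3 hours after food was taken away. They give ages of 176, 178 and 224 days for mutants 1 to 3 and of 209, 213 and 140 days for controls 1 to 3. The genotypes were kept in separate cages, so that cage and genotype cannot be told apart. The comparison was meant to show which metabolic pathways differ downstream of the mutation.

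Liver keeps blood glucose steady by taking glucose up after a meal and giving it back between meals. Glucose crosses the hepatocyte membrane in both directions through GLUT2, the product of Slc2a2, and is trapped inside as glucose 6-phosphate, and Gckr encodes a regulatory protein of liver glucose metabolism. In the direction of release, phosphoenolpyruvate carboxykinase (Pck1) and fructose 1,6-bisphosphatase (Fbp1) bypass irreversible steps of glycolysis, the transporter encoded by Slc37a4 carries glucose 6-phosphate into the endoplasmic reticulum, and glucose 6-phosphatase (G6pc) frees the glucose there. Pyruvate kinase of liver (Pklr) works in the opposite direction, at the last step of glycolysis. G6pc3 is a paralog of G6pc made in most tissues, and Hk3 is a high-affinity hexokinase known mainly from white blood cells. Insulin lowers and glucagon, through cAMP, raises transcription of G6pc and Pck1.

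The RefSeq table of promoters (build GRCm38.p6) held 12 entries for the 9 genes, with at least 1 for each. The stretches shown are the 250 bases before the start that the table gives for 4 of them, because G6pc and Pck1 are the classic hormone-controlled genes of glucose release and because Gckr and G6pc3 had large differences below. For Gckr that start lies inside the gene, whose annotated span begins at position 31297266, so that the stretch shown is within the gene and does not precede it. Capitals mark motif letters found on either strand. In G6pc they mark TGTTTTG, the core of an insulin response motif, and TTACGTNA, a variant of the cAMP response element, in Pck1 the second of these, in Gckr the first, and in G6pc3 the E-box CACGTG.
G6pc, chr11:101367466-101367715, plus strand: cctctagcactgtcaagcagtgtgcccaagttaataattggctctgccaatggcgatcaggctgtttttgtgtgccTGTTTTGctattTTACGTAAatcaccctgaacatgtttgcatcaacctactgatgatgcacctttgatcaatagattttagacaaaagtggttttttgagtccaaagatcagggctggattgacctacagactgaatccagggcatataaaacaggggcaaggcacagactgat
Pck1, chr2:173152823-173153072, plus strand: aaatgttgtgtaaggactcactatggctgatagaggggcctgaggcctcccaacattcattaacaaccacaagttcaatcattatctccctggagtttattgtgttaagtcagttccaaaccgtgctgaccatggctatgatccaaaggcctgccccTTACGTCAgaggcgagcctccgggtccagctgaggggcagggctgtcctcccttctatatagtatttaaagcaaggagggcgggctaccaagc
Gckr, chr5:31297313-31297562, plus strand: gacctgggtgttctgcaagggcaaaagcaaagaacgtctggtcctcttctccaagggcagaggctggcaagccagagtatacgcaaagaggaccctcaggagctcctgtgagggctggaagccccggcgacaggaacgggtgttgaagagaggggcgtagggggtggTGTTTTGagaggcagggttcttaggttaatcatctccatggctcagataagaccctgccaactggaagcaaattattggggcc
G6pc3, chr11:102189449-102189698, plus strand: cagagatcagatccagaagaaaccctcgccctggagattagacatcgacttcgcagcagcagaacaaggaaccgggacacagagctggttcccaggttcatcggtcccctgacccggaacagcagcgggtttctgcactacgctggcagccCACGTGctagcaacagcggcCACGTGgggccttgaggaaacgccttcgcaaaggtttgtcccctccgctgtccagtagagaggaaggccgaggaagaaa

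The TTACGTNA letters begin 162 bases before the start of G6pc and 93 bases before that of Pck1, and 0.788% of the 32851 promoters in the table hold them in a window of this length. TGTTTTG begins 174 bases before the start of G6pc and 83 bases before the start the table gives for Gckr, within the annotated gene, and is found in 5.56% of all promoters. The E-boxes of G6pc3 begin 99 and 79 bases before its start, and 6.02% of all promoters hold at least 1 CACGTG. The full cAMP response element TGACGTCA and the forkhead letters GTAAACA were found in none of the 12 member promoters, against 1.55% and 3.17% of all. At shares this low, finding none in 12 promoters does not set these genes apart. A match is only a match of letters, and no measurement of binding was made.

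The median log2 value of the arrays lay between 6.12 and 6.24 in mutants and between 5.92 and 6.12 in controls, and the median difference over all probe sets, mutant minus control, was 0.17. Every difference below is the mutant mean minus the control mean of log2 values, signed as the labels name the arrays. With each array centred on its median that general shift was 0.01, and the 561 probe sets that rose and 336 that fell by limma (adjusted p under 0.05) became 150 and 150. The 14 probe sets for the bacterial transcripts BioB, BioC and BioD, which are spiked in at hybridization, averaged 11.20, 11.76 and 11.48 in the mutants and from 9.66 to 10.08 in controls. The 3' minus 5' signal of the Gapdh control probe sets, a measure of RNA integrity, was 0.45, -1.06 and -1.78 in the mutants, in the order 1 to 3, while controls had 2.02 to 2.31 (difference -3.01, exact two-sided permutation test, p = 0.1). The same measure for Actb was 2.596, 3.95 and 4.50 in mutants and 3.82, 3.90 and 3.11 in controls, with overlap (difference 0.07, exact two-sided permutation test, p = 0.8). The targeted gene, Pdss2, was lower in every mutant than in every control on its brightest probe set, at 6.94, 6.88 and 7.05 in mutants against 7.46, 7.47 and 7.56 in controls (difference -0.54, standard error 0.18, adjusted p = 0.118 from limma). On its other probe sets the groups overlapped and the mutant mean was the higher one, by 0.40 and 0.35. As their place in the gene with respect to the deleted exon was not analysed here, the labels are not checked by any of these probe sets. Of 20 hepatocyte markers 18 were measured, and the lowest of their values on any array, 8.10, lay above the median of every array.

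Among the genes that act on glucose at its entry, Hk3 rose on 1 of its 2 probe sets and Gckr was higher in every mutant without passing the test. Probe set 1442798_x_at of Hk3 read 9.22, 10.28 and 9.99 in mutants 1 to 3. In controls 1 to 3 it read 7.72, 7.96 and 7.66, and all values below follow the same order of mice. The groups lay far apart, with the lowest mutant well above the highest control. The difference was 2.05 (standard error 0.29, 95% confidence interval 1.37 to 2.73, n = 3 per group, adjusted p = 0.0345 from limma), which is 4.14-fold. Probe set 1435490_at of the same gene gave no such picture, at 7.85, 7.58 and 7.36 in mutants and 7.70, 7.58 and 7.97 in controls. Here the groups overlapped and the difference was -0.15 (standard error 0.22, adjusted p = 0.706 from limma). The difference between the 2 probe sets within each array was 2.20 larger in mutants than in controls, with no overlap (exact two-sided permutation test, p = 0.1, the smallest that 3 mice against 3 can give). The ending _x_at marks probe sets in which some probes also match other transcripts, and which transcripts these are was not examined here. Of the 2441 probe sets with this ending, 3.61% passed the test, against 1.99% of all probe sets. In another fit, of the 18193 gene means, the mean of both probe sets differed by 0.95 (adjusted p = 0.0437 from limma). That value joins the 2.05 of the first probe set with the -0.15 of the second and is no separate measurement.

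Because Hk3 belongs to white blood cells, markers of those cells were read beside it. Of 14 neutrophil markers 12 were measured, and limma called none higher and none lower, with 5 higher and 0 lower at an unadjusted p under 0.05. Over all genes, 17.3% were higher and 12.2% lower at that threshold. Their median difference was 0.49, against 0.17 for all genes, and their summed level on the log2 scale was 9.98 to 10.12 in mutants and 9.36 to 9.55 in controls. Of 16 markers of Kupffer cells and macrophages, all measured, none was called either, with 4 (25%) higher and 0 lower at an unadjusted p under 0.05. Their median difference was 0.42 and their summed level 11.69 to 12.29 in mutants and 10.78 to 11.62 in controls. Such a sum is taken before the log2 scale, so that the brightest genes weigh most. Here the brightest was Csf1r, at 10.23, 11.58 and 10.61 in mutants and 9.25, 9.28 and 10.72 in controls, with overlap. No marker of either list was listed at 0, and the lowest value was 4.67 for neutrophils and 4.26 for macrophages. Both values lay below the lower quartile of every array, which was 5.28 to 5.40 in mutants and 5.03 to 5.25 in controls. A list of 12 lymphoid markers, of which 10 were measured, did not stand out. Limma called none of them, with 2 (20%) higher and 0 lower at an unadjusted p under 0.05. Their median difference was 0.17, as for all genes. Their summed level reached 10.11 in mutants and 10.19 in controls, with overlap. In whole liver, more cells of a type and more RNA per cell cannot be told apart, and the part of either in the Hk3 value was not tested.

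Gckr, the gene of that regulatory protein, was read by the probe set 1426059_at. Mutants 1 to 3 had log2 values of 11.998, 12.75 and 12.96, and controls 1 to 3 had 11.57, 11.51 and 11.13. Each mutant lay above each control, with mutant 1 the closest to them. The difference of 1.17 (standard error 0.29, 95% confidence interval 0.49 to 1.84, n = 3 per group), or 2.24-fold, had an adjusted p of 0.0699 from limma and did not pass. It passed among the 22520 brighter probe sets (adjusted p = 0.0411) and with the brightest probe set of each gene (0.0453), but not with the mean over each gene's probe sets (adjusted p = 0.06 from limma). It also passed with age as a covariate (1.12, adjusted p = 0.0448) and without mutant 1 (1.45, adjusted p = 0.0192). These are the only passes, in 3 of 9 alternatives that kept every mouse and 1 of 6 that left 1 out. With each array centred on its median the difference was 1.00 (adjusted p = 0.106 from limma). The highest adjusted p of any alternative was 0.209 from limma.

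**Figure D1:**
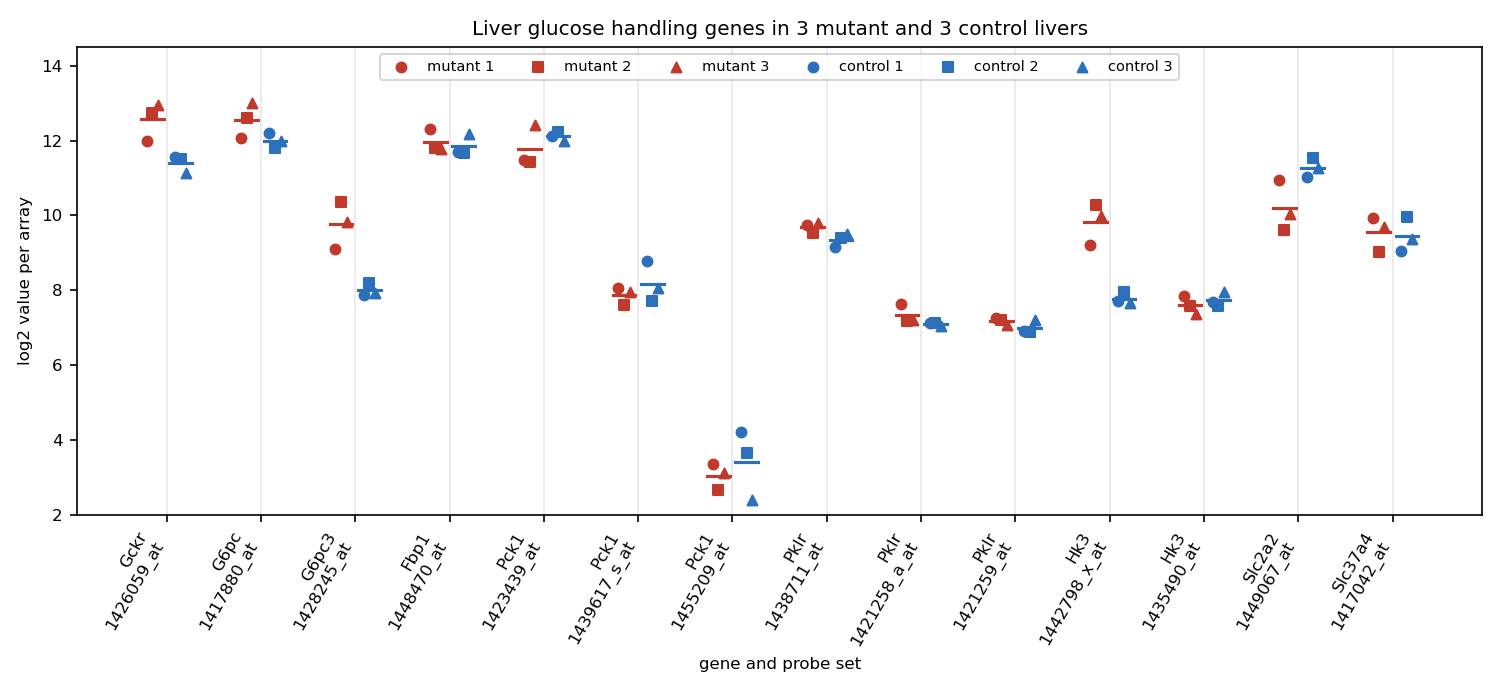
Log2 value (vertical axis) of each of the 14 probe sets (horizontal axis) in the 3 mutants (red) and 3 controls (blue), with a marker shape for each mouse and short lines for the group means. For Hk3 1442798_x_at and G6pc3 the mutants sit at 9.22 to 10.28 and 9.11 to 10.35, above the controls at 7.66 to 7.96 and 7.86 to 8.19, while Slc2a2 is lower in all 3 mutants.

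Of the genes at the step that frees glucose, G6pc3 rose, while the differences of G6pc and of Slc37a4 did not pass the test. G6pc3 (probe set 1428245_at) read 9.11, 10.35 and 9.83 in the mutants, against 7.86, 8.19 and 7.94 in the controls. All mutants lay above all controls, with mutant 1 the closest to them. The difference was 1.77 (standard error 0.32, 95% confidence interval 1.03 to 2.51, n = 3 per group, adjusted p = 0.0464 from limma), or 3.40-fold. With each array centred on its median it was 1.60 and no longer passed (adjusted p = 0.059 from limma). Mutant 1 was the lowest and mutant 2 the highest of the mutants for G6pc3, as for probe set 1442798_x_at of Hk3. The spiked-in bacterial transcripts had the same order among the mutants but not among the controls, where control 1 was their highest and control 2 that of both genes, and their part in these values was not tested.

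G6pc, the liver enzyme itself, read 12.07, 12.59 and 12.99 in mutants and 12.21, 11.79 and 11.98 in controls (probe set 1417880_at). Mutants 2 and 3 exceeded every control, and mutant 1 lay within the controls. The difference of 0.56 (standard error 0.27, 95% confidence interval -0.07 to 1.19) had an adjusted p of 0.247 from limma. G6pc3 differed by 1.21 more than G6pc within arrays, with no overlap of the groups (exact two-sided permutation test, p = 0.1). Slc37a4, the carrier that supplies G6pc with its substrate, read 9.93, 9.03 and 9.68 in mutants and 9.06, 9.95 and 9.36 in controls (probe set 1417042_at). The groups covered the same range, and the difference of 0.091 (95% confidence interval -0.65 to 0.83, adjusted p = 0.891 from limma) turned to -0.071 with each array centred on its median. The G6pc difference exceeded that of Slc37a4 by 0.47 within arrays, with overlap (exact two-sided permutation test, p = 0.5).

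The enzymes of the gluconeogenic bypass showed no difference that passed the test. The brightest of 3 probe sets for Pck1, 1423439_at, read 11.49, 11.43 and 12.41 in the mutants, against 12.12, 12.23 and 11.99 in the controls. Mutants 1 and 2 lay below the controls and mutant 3 above them, so that the mutant spread (SD 0.55, n = 3) was wider than that of the controls (SD 0.12, n = 3). The difference was -0.34 (95% confidence interval -1.02 to 0.33, adjusted p = 0.509 from limma). The other probe sets of Pck1 differed by -0.31 (1439617_s_at, adjusted p = 0.569) and -0.36 (1455209_at, adjusted p = 0.659 from limma), also with overlap. The last of them was dim, at 2.39 to 4.22, among the lowest 1.26% of all probe sets. The G6pc value minus that of Pck1 within arrays was 0.90 larger in mutants than in controls, with no overlap (exact two-sided permutation test, p = 0.1). Fbp1 read 12.32, 11.81 and 11.78 in mutants and 11.71, 11.66 and 12.17 in controls (probe set 1448470_at). The groups overlapped, and the difference of 0.12 (95% confidence interval -0.45 to 0.69, adjusted p = 0.799 from limma) was -0.042 with each array centred on its median.

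Pklr, which runs against this direction, was slightly higher in mutants on all 3 of its probe sets without passing the test. The brightest, 1438711_at, read 9.76, 9.53 and 9.80 in mutants and 9.17, 9.40 and 9.50 in controls. The groups did not overlap but mutant 2 and control 3 nearly met. The difference was 0.34 (95% confidence interval -0.12 to 0.80, adjusted p = 0.322 from limma). The probe sets 1421258_a_at and 1421259_at differed by 0.24 (adjusted p = 0.502) and 0.18 (adjusted p = 0.618 from limma), without and with overlap. With each array centred on its median the 3 differences were 0.18, 0.083 and 0.015.

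Slc2a2, the gene of the GLUT2 transporter, was the member with the lowest mutant values relative to controls. It read 10.94, 9.60 and 10.03 in the mutants, against 11.03, 11.52 and 11.26 in the controls (probe set 1449067_at). Each mutant lay below each control, but mutant 1 was close to control 1 and the other 2 mutants stood well apart. The difference was -1.08 (standard error 0.35, 95% confidence interval -1.89 to -0.28, n = 3 per group), or 47.2% of the control level, with an adjusted p of 0.112 from limma. It passed without mutant 1 (-1.46, adjusted p = 0.0231) and in no other alternative. Mutant 1 was also the mutant nearest to the controls in the Gapdh 3' minus 5' signal given above, whereas in that of Actb mutant 2 was the nearest and mutant 1 lay below every control. The part of either in this value was not tested. None of the 18 measured hepatocyte markers passed limma's test, with 0 higher and 1 (5.56%) lower at an unadjusted p under 0.05, and their median difference was -0.24. Their summed level was 16.99 to 17.34 in mutants and 17.30 to 17.36 in controls. The Gckr and Slc2a2 differences were 2.25 apart within arrays, with no overlap (exact two-sided permutation test, p = 0.1). Adjusted over the 5 pairs compared, which were chosen after the values were seen, the exact p of the 4 pairs without overlap was 0.125.

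**Figure D2:**
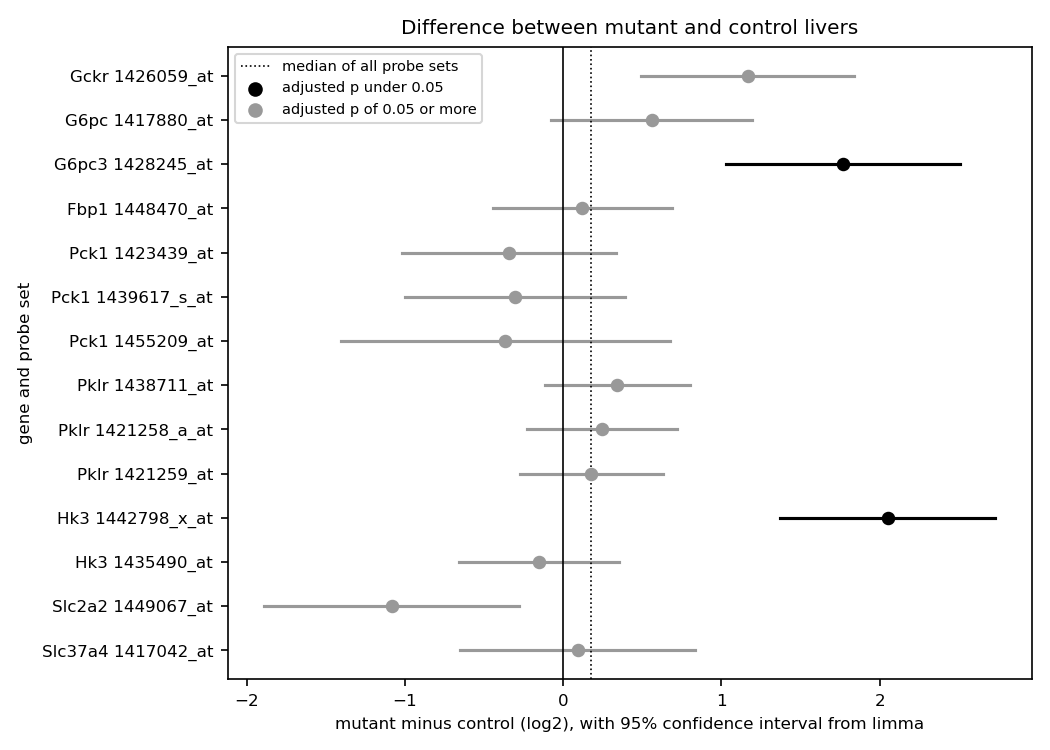
Difference between mutant and control means on the log2 scale (horizontal axis) for each probe set (vertical axis), with its 95% confidence interval from limma (3 mice per group). Black points passed an adjusted p under 0.05, grey points did not, the solid line marks 0 and the dotted line the median of all probe sets, 0.17. Hk3 1442798_x_at and G6pc3 are black, and Gckr and Slc2a2 are the grey points whose intervals do not reach 0.

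Counted together, 2 of the 14 probe sets rose and none fell at an adjusted p under 0.05 (14.3%), against 1.99% of all 45037 probe sets, of which 1.25% rose and 0.746% fell. As the members were chosen with earlier results of these data known, these shares describe them and are no test. At an unadjusted p under 0.05 the members numbered 4 (28.6%), near the 25.2% of all probe sets. In 6 of the 14 (42.9%) the groups did not overlap, 5 with the mutants higher and 1 with the mutants lower, against 31.9% of all probe sets (21.2% higher and 10.7% lower). The median difference of the 14 probe sets was 0.15, and that of the brightest probe sets of the 9 genes 0.34, against 0.17 for all probe sets. The calls of Hk3 and G6pc3 did not hold when mice were left out. Without mutant 2, mutant 3, control 1, control 2 or control 3 limma called none of the 14, and without mutant 1 it called 4, Hk3, G6pc3, Gckr and Slc2a2. Over these 6 fits the Hk3 difference ranged from 1.82 to 2.36 (adjusted p from 0.00938 to 0.161) and that of G6pc3 from 1.47 to 2.09 (adjusted p from 0.00987 to 0.179). The labels name control 1 (209 days old) as the concurrent control of mutant 3 (224 days old). In this pair alone the differences were 2.27 for Hk3 (1442798_x_at), 1.97 for G6pc3, 1.39 for Gckr, 0.78 for G6pc and -1.004 for Slc2a2. For the 3 probe sets of Pck1, in the order given above, they were 0.28, -0.82 and -1.11, and for Hk3 1435490_at the difference was -0.34. A single pair has no spread of its own.

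**Figure D3:**
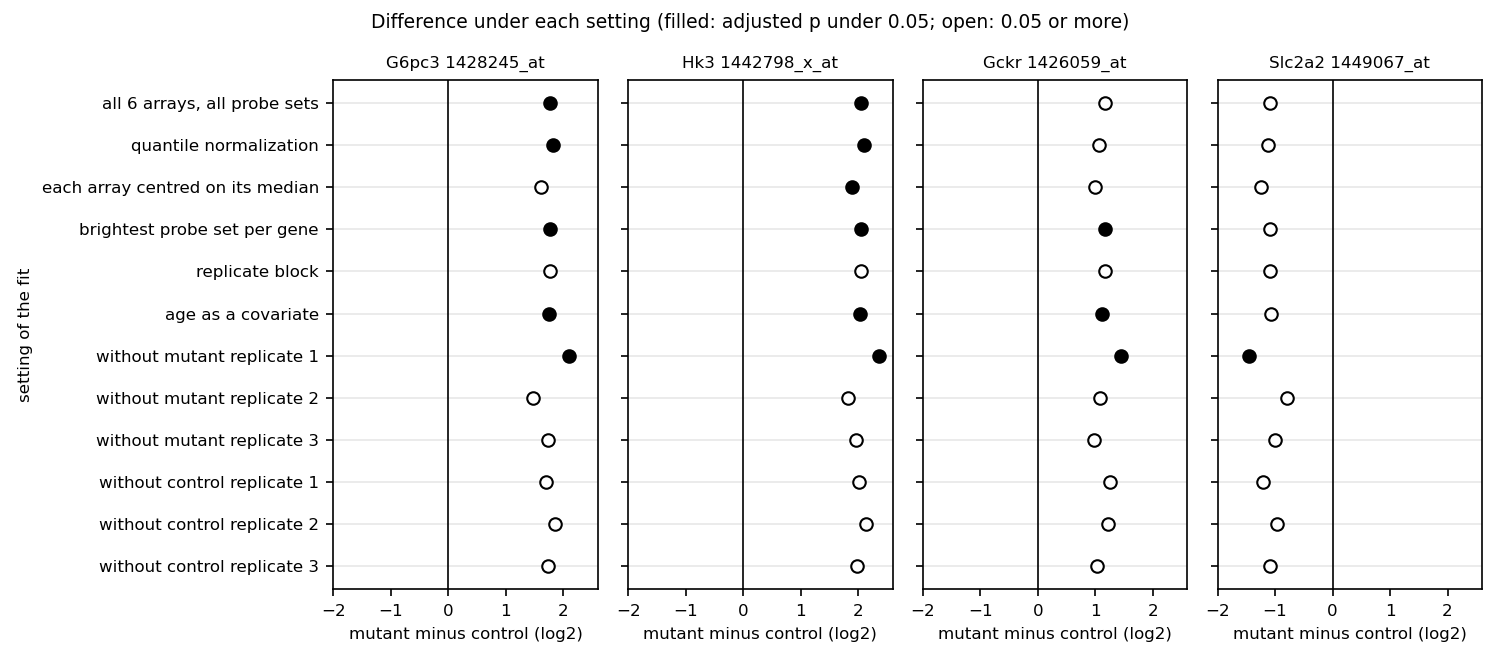
Difference between mutants and controls on the log2 scale (horizontal axes) for 4 probe sets under the settings named on the vertical axis. Filled points have an adjusted p under 0.05 from limma and open points do not. Directions stay the same in every setting shown, and all points are open under the replicate block and without mutant 2, mutant 3 or any control.

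Around these genes, 5 lists of the same pathway were read, each gene by its brightest probe set. Of 30 other genes of glycolysis and gluconeogenesis 25 were measured, and limma called none of them, with 8 (32%) higher and 0 lower at an unadjusted p under 0.05, against 17.3% and 12.2% of all genes. The median difference of the 25 genes on their brightest probe sets was 0.28, against 0.17 for all genes, of which 2.78% passed the test. Of 17 measured genes that set fructose 2,6-bisphosphate or the fate of pyruvate, limma called none either, with 2 (11.8%) higher and 7 (41.2%) lower at an unadjusted p under 0.05 and a median difference of -0.56.

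Of 24 measured genes of glycogen metabolism 1 rose and none fell, with a median difference of 0.17. At an unadjusted p under 0.05, 4 (16.7%) were higher and 3 (12.5%) lower, against 17.3% and 12.2% of all genes. The gene that passed was Gaa, the lysosomal enzyme that breaks down glycogen. It read 11.87, 12.22 and 11.85 in mutants and 9.52, 9.71 and 9.15 in controls. This was a difference of 2.52 (standard error 0.23, adjusted p = 0.0263 from limma). Its other probe set differed by -0.10, and the brighter one carries the ending _x_at, as in Hk3. Among 41 measured hormone receptors, kinases and transcription factors of glucose control 1 rose and 1 fell, with a median difference of -0.02. More of them were lower than higher at an unadjusted p under 0.05, 11 (26.8%) against 5 (12.2%). Of all genes, 12.2% were lower and 17.3% higher at that threshold. Gcgr, the glucagon receptor, rose from 11.11, 11.02 and 10.94 in controls to 12.01, 12.55 and 12.48 in mutants (1.32, standard error 0.21, adjusted p = 0.0387 from limma). Irs1, which relays the signal of the insulin receptor, fell from 9.17, 9.06 and 8.58 in controls to 7.60, 7.57 and 7.30 in mutants (-1.45, standard error 0.23, adjusted p = 0.0356 from limma). In neither gene did the groups overlap. Of 14 measured genes of sugar, lactate and glycerol transport and of fructose use 1 fell and none rose, with a median difference of -0.20. At an unadjusted p under 0.05, 1 of these (7.14%) was higher and 4 (28.6%) were lower, against 17.3% and 12.2% of all genes. Slc16a7, a carrier of pyruvate and lactate, fell by 2.10 on the log2 scale (standard error 0.36, adjusted p = 0.0428 from limma), with mutants at 6.82, 5.78 and 5.78 and controls at 7.70, 8.52 and 8.45. The 4 calls on the brightest probe sets of these lists were lost without mutant 2, mutant 3 or any of the controls.

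**Figure D4:**
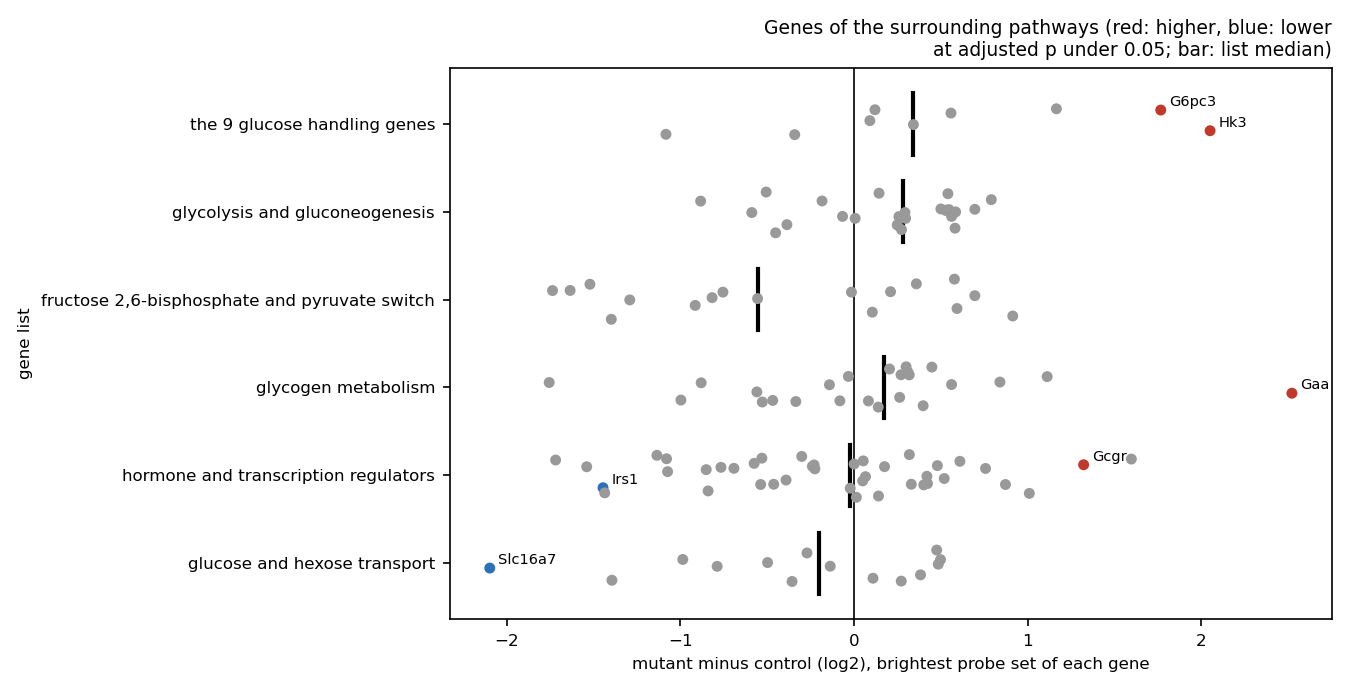
Difference between mutants and controls on the log2 scale (horizontal axis) for the brightest probe set of each gene in the 9 genes described here and in 5 lists of their pathways (vertical axis), with a bar at each list's median. Red points are higher and blue points lower by limma, with an adjusted p under 0.05. The coloured points are Hk3, G6pc3, Gaa, Gcgr, Irs1 and Slc16a7.

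The genes whose values ran most like those of G6pc3 over the 6 arrays, by Pearson's r, were Sez6 (0.999), Sav1 (0.999) and Olfr156 (0.998). For probe set 1442798_x_at of Hk3 they were Rilpl1, Casp12 and Uroc1, with r of 0.999 or more. These values describe 6 points that fall into 2 groups lying apart, and r was above 0.95 for 553 genes with G6pc3 and for 692 genes with Hk3. Of 8 lists of liver cell types, limma called genes only in that of sinusoidal endothelial cells, where Stab1 (1.39, adjusted p = 0.0499) and Stab2 (1.82, adjusted p = 0.0375) of 16 genes rose and none fell. Both were named after their values were seen, and 2.78% of all genes passed the test. At an unadjusted p under 0.05 that list had 6 genes (37.5%) higher and 1 (6.25%) lower, against 17.3% and 12.2% of all genes. The lower one, also named after its values were seen, was Dnase1l3 (-1.30, adjusted p = 0.0788 from limma). Its other probe set differed by 0.87. The median difference of the list was 0.19, against 0.17 for all genes. The summed level of the 16 genes was 12.63 to 13.37 in mutants and 11.77 to 12.44 in controls. The part of that level in the values of the 9 genes was not tested.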

How the data were processed

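Liver RNA of 3 mutants and 3 controls was measured on 1 array per mouse, grouped by the sample titles. The deposited log2 values, which the authors obtained with the PM-only model of dChip after normalization (0 to 14.63, with 40 values of exactly 0), were used as they stand, without pooling. No version of dChip is named, and detection calls were not used here. Although a C. elegans array is named in the methods, the probe sets match the annotation of a mouse array.

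The 64 control probe sets were set aside and the other 45037 fitted together by limma 3.58.1 (lmFit, then eBayes; R 4.3.3), with Benjamini-Hochberg adjustment over all of them and a threshold of 0.05. Of these, 34945 carried 1 gene symbol. For single values an exact two-sided permutation test used the 20 possible assignments of the arrays. The fit was tested on simulated data. The members and lists were chosen with earlier results of these data known. Named genes were the 9 members, Pdss2, the genes of the 5 pathway lists past the threshold and the 3 genes of highest r to each called member, and exceptions are stated where they stand. An item of that rule is not reported here. Marker lists of erythroid, stellate, bile duct and lymphoid cells were also read, and limma called 0 genes in each. At an unadjusted p under 0.05, 1 of 6, 3 of 14, 3 of 7 and 2 of 10 measured genes were higher. These shares were 16.7%, 21.4%, 42.9% and 20%, against 17.3% of all genes. At that threshold 1 stellate marker (7.14%) and 0 of the other lists were lower, against 12.2% of all genes. The alternatives were other scalings, filters, features tested, spread models, a replicate block, age and leaving out each mouse. Nothing in the labels says that the mice came from separate litters. Arrays have no read depth, and precision is limited by their number.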

Additional observations from a re-analysis of the deposited data

Results flagged for a closer look

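The bacterial spike-in control probe sets, which lie outside the comparison, averaged 1.61 higher on the log2 scale on the mutant arrays than on the control arrays, with no overlap between the groups (exact two-sided permutation test, p = 0.1, the smallest that 3 arrays against 3 can give). Their part in the values of the glucose genes was not tested.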

How the results depend on the processing

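Over 15 alternatives the differences of Hk3 (1442798_x_at), G6pc3, Gckr, G6pc, Slc2a2 and Pklr kept their sign. Median centring of the arrays gave -0.042 for Fbp1 and -0.071 for Slc37a4. With 1 mouse left out, Fbp1 ranged from -0.053 (without mutant 1) to 0.28, Slc37a4 from -0.11 (without control 1; -0.10 without mutant 1) to 0.35, and Pck1 1455209_at from -0.88 to 0.037 (without control 1). None of these differences passed the test under any setting, and the cause was not tested.

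The count of all probe sets called by limma (897; 561 higher, 336 lower) was 300 (150 and 150) after median centring, 3050 (1587 and 1463) among the brighter probe sets, 1643 (895 and 748) with 1 probe set per gene, 502 (309 and 193) for the mean over a gene's probe sets, 1413 (864 and 549) with trend and robust eBayes and 2515 (1392 and 1123) with age as a covariate. It was 5165 at an adjusted p under 0.1 and 11356 at an unadjusted p under 0.05. Leaving out 1 mouse gave 0 to 3840 (0 to 1289 higher, 0 to 2551 lower), and at an unadjusted p under 0.05 there were still 7526 to 12190. The members called numbered 1 with centring, where G6pc3 had an adjusted p of 0.059, 4 at an unadjusted p under 0.05, and 0 to 4 with a mouse left out.

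For the lists of pyruvate switch, glycogen and regulators, with main counts of 0, 1 and 2, the counts were 3, 3 and 6 among the brighter probe sets and with 1 probe set per gene. They were 1, 2 and 3 for the mean over a gene's probe sets, and 1, 2 and 7 with age. Trend and robust eBayes gave 1 and 2 for the first 2, centring gave 1 for the regulators, and the brighter probe sets gave 2 for the transporters. With a mouse left out the 5 lists ranged over 0 to 1, 0 to 6, 0 to 4, 0 to 9 and 0 to 3.

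The replicate numbers do not pair the mice: deviations of same-numbered mice correlated at 0.06, -0.50 and -0.56. Other pairs ranged from -0.45 to 0.62, with 0.45 for mutant 3 and control 1, which the labels name as concurrent. The highest was that of mutant 2 and control 3 (178 and 140 days old), which no label names as concurrent. Mutant 3 (224 days) correlated at 0.40 with control 2 (213 days). Mutant 1 (176 days) correlated at -0.14 with control 3. The part of age in these correlations was not tested. With the number as a replicate block limma called 0 probe sets in all, 0 members and 0 genes in each list, with 7935 probe sets at an unadjusted p under 0.05 and an adjusted p of 0.182 for Hk3 and G6pc3. Detection calls were not used here, so how far a dim probe set lay above background is not known.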
